A study of Rattus norvegicus with 36 samples.

Results

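Whole blood 2 weeks after 15 Gy to the thorax was compared here with whole blood of rats that received 0 Gy and were sampled at 1 week, the control that the study named for that time point. The comparison used 6 of the 36 small RNA libraries of the series, 3 at 15 Gy 2 weeks and 3 at 0 Gy 1 week, and they were chosen by their tissue, dose and week alone. All rats were female WAG/RijCmcr, 9 to 10 weeks old at irradiation. The irradiated rats were awake and held in a jig for a single exposure to X-rays, with the whole lung, the heart and a small part of the liver in the field. The 0 Gy rats were of matched age and were kept the same way without the exposure. Blood was drawn from the heart, so cells of the vessel wall or heart could enter the sample. Equal amounts of RNA from 3 rats went into every library by the paper's account, or 9 animals a group, whereas GEO's labels mention only 3 a group. Here n is the number of libraries. The control was taken 1 week earlier than the irradiated blood, so dose and time of sampling cannot be told apart in this comparison alone. A second unirradiated group, 0 Gy at 4 weeks, is given beside it where it bears on a result. In whole blood, fewer cells of a type and less RNA per cell cannot be told apart.

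miRNAs are short RNAs that guide Argonaute proteins to mRNAs, mainly through the seed, bases 2 to 8 from the 5′ end. Most cells of blood are red cells, which with their precursors carry miR-486-5p, miR-451-5p and miR-144, while white cells carry others. miR-142 is restricted to cells of the blood lineage, miR-150-5p is abundant in mature lymphocytes and miR-223-3p in neutrophils and monocytes. Lymphocytes are among the cells most sensitive to ionising radiation, and red cell precursors in irradiated marrow are depleted and then replaced.

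The mature sequences below, from the RefSeq annotation of the rat build GRCr8, belong to the miRNAs on which the results turn. Bases 2 to 8 are in capitals. The first pair are the arms of the miR-142 hairpin on the plus strand of chromosome 10 (chr10:73055119-73055139 and chr10:73055155-73055177), within the span of the protein-coding gene Tspoap1.
miR-142-5p: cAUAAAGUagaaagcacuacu
miR-142-3p: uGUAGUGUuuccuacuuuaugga
The next 3 come from a pair of red cell hairpins on the plus strand of chromosome 10 (chr10:63459409-63459431, chr10:63459446-63459465 and chr10:63459585-63459606). The Mir144 and Mir451a hairpins lie 90 nt apart, with no other gene listed there.
miR-144-5p: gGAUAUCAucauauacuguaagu
miR-144-3p: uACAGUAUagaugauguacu
miR-451-5p: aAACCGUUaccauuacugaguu
The third set is from the miR-17-92 cluster on the plus strand of chromosome 15 (chr15:98588000-98588022, chr15:98588041-98588061, chr15:98588179-98588201 and chr15:98588602-98588622), which is shown because its members differed in direction. The Mir18a and Mir19a hairpins lie 476 nt and 343 nt from Mir92a1, and miR-92a-3p is also encoded at another locus.
miR-18a-5p: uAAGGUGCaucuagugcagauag
miR-18a-3p: aCUGCCCUaagugcuccuucu
miR-19a-3p: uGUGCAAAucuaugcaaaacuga
miR-92a-3p: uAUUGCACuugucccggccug
The last 2 share the seed of miR-92a-3p. miR-92b-3p is at chr2:176931663-176931684 on the minus strand with no other gene listed there. miR-25-3p is at chr12:22156652-22156673 on the minus strand, within the span of Mcm7.
miR-92b-3p: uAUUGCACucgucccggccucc
miR-25-3p: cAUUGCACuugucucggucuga
miR-150-5p, miR-486-5p, miR-423-3p, miR-328a-3p and miR-301a-3p are given by name only.

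The deposited values are raw read counts for 947 miRNAs per library. Total counts were 1725584 to 2172822 at 0 Gy 1 week and 1156407 to 1772398 at 15 Gy 2 weeks. One control library stood apart. Replicate 3 of 0 Gy 1 week held 70470 counts outside miR-486-5p, against 236705 and 175175 in the other control libraries and 189113 to 273367 in the irradiated ones. It also had the fewest miRNAs with a count, 365 against 413 to 456. Replicate 1 of 0 Gy 1 week is in doubt for another reason. In the paper's supplementary count table, its column and that of replicate 2 of 15 Gy 1 week carry each other's number, and here the deposited labels were kept. Values without either library are given beside the results that it changes most.

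miR-486-5p took a smaller share of the counts at 2 weeks than in the controls. Its share was 88.98%, 91.94% and 95.92% in the 3 control libraries and 83.65%, 85.45% and 84.58% in the 3 irradiated ones. All irradiated libraries lay below all controls, and they lay closer together. The mean was 92.3% ± 3.48 (SD, n = 3) in the controls and 84.6% ± 0.904 (SD, n = 3) at 2 weeks, a difference of -7.72 percentage points (two-sided exact permutation test, p = 0.1, the smallest p that 3 against 3 libraries allow). Against both 0 Gy groups pooled, the difference was -7.15 percentage points (exact permutation test, p = 0.0238). Shares under 86% also occurred in 1 library at 15 Gy 3 weeks (84.83%) and in 1 library at 15 Gy 4 weeks (83.27%). The counts outside miR-486-5p were 160783 ± 84047 (SD, n = 3) in the controls and 239397 ± 44433 (SD, n = 3) at 2 weeks, and the groups overlapped (exact permutation test, p = 0.2). The paper also saw fewer miR-486-5p reads at 2 weeks, a fall that its RT-qPCR did not bear out. It holds that sequencing may have overrepresented miR-486-5p, so these are shares of reads.

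**Figure D1:**
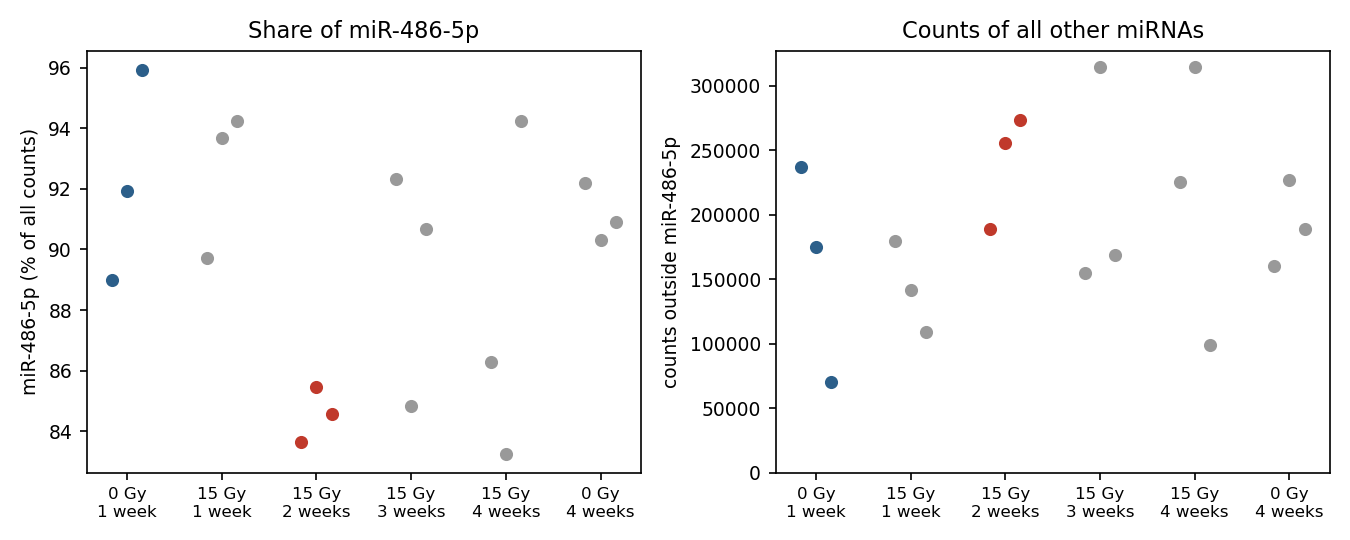
Left, miR-486-5p as a percentage of all counts in each blood library, by dose and week; right, the counts of all other miRNAs. Each point is 1 library, replicates 1 to 3 from left to right, with 0 Gy 1 week in blue, 15 Gy 2 weeks in red and the other groups in grey. The 3 red points lie between 83.65% and 85.45%, below the 3 blue points, and the third blue point has the fewest other counts, 70470.

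Since miR-486-5p sets the total, the other miRNAs are given as counts, as CPM, counts scaled to a common library size after TMM scaling, which sets each library's size to its trimmed mean against the rest, and as shares of the counts outside miR-486-5p. The 10 most abundant known rat miRNAs other than miR-486-5p made up 53.92% to 58.1% of those counts in the controls and 50.73% to 54.45% at 2 weeks. miR-92a-3p was the most abundant, with shares of 12.46%, 13.53% and 21.79% in the controls and 5.65%, 9.339% and 9.444% at 2 weeks. Every irradiated library was below every control. miR-191a-5p, the reference of the study's RT-qPCR, followed with 6.707%, 9.272% and 10.47% and then 8.271%, 8.963% and 9.572%, and its groups overlapped. miR-16-5p was next, with 9.715%, 8.109% and 2.847% and then 7.97%, 8.381% and 8.592%, a range set by control replicate 3. miR-26a-5p, the homolog entry bta-miR-26c and a new locus at chr8:123981613-123981719 (build rn4) had shares that moved together in all 6 libraries, 5.681%, 6.274% and 6.669% in control replicate 1, for example. By the authors' methods, new loci were predicted from reads left over after miRBase mapping, and how reads were divided between rat and homolog entries was not stated.

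Across the 289 miRNAs tested of 947, the quasi-likelihood test of edgeR called 1 higher and 0 lower at a Benjamini-Hochberg adjusted p under 0.05, which is 0.346% and 0% of those tested. At an unadjusted p under 0.05, 13 were higher (4.5%) and 21 were lower (7.27%). Entries that overlap or have nearly the same counts are counted separately in all these totals. For example, a new locus at chr10:67078715-67078809 (rn4) and the locus that encloses it, chr10:67078689-67078839, were each 3.25-fold lower and both are among those called. In CPM, all 3 irradiated libraries lay above all controls for 26 miRNAs (9%) and below for 35 (12.1%). As shares of the counts outside miR-486-5p, 53 lay above (18.3%) and 19 below (6.57%). With TMM, 155 of the 289 had a positive log2 fold change and 131 a negative one, the background for the lists below. The median log2 fold change of all miRNAs tested was 0.05 with TMM, and 1.17 with library totals, which count miR-486-5p in full. With library totals 88 were higher and 1 lower at the unadjusted threshold, so directions below are relative to the TMM median. DESeq2, run on the same miRNAs, called 1 higher and 2 lower after adjustment. The 2 lower were miR-150-5p and a new locus on chromosome 1 with nearly the same counts.

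The miRNA of white cells with the largest difference upwards was miR-142-5p. Its counts were 205, 123 and 94 in the controls and 1001, 664 and 864 at 2 weeks, which is 93.7, 76.2 and 108 CPM against 465, 257 and 279 CPM. The lowest irradiated library was well above the highest control. Its share of the counts outside miR-486-5p was 0.0967% ± 0.0328 (SD, n = 3) and 0.368% ± 0.142 (SD, n = 3). The log2 fold change was 1.85 (SE 0.576, 95% interval 0.62 to 3.09), 3.61-fold, with an adjusted p of 0.218 by the quasi-likelihood test of edgeR. The other arm of the hairpin, miR-142-3p, had 43.0, 32.2 and 33.3 CPM in the controls and 112, 86.0 and 76.9 CPM at 2 weeks, and the groups again did not overlap. Its log2 fold change was 1.34 (SE 0.432, edgeR adjusted p = 0.218). Without control replicate 3 the log2 fold changes were 1.97 for miR-142-5p and 1.28 for miR-142-3p, and without control replicate 1 they were 1.89 and 1.51.

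Of the 6 miRNAs listed for myeloid cells and leukocytes, 4 could be tested and 2 of them, both arms of miR-142, were higher at the unadjusted threshold, with a list median of 0.97 against 0.05 over all tested. miR-223-3p of neutrophils and monocytes had counts of 40, 26 and 4 and then 17, 41 and 37, a log2 fold change of -0.15 (SE 0.448, edgeR adjusted p = 0.952). miR-146a-5p, induced by NF-κB, had counts of 5, 3 and 4 and then 14, 7 and 11, with a log2 fold change of 0.60 (SE 0.647, edgeR adjusted p = 0.761). These 2 overlapped between the groups, so the list's median is carried by miR-142.

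Among lymphocyte miRNAs, miR-150-5p was lower at 2 weeks. Its counts were 71, 95 and 231 in the controls and 47, 53 and 38 at 2 weeks, which is 32.4, 58.8 and 265 CPM against 21.8, 20.5 and 12.3 CPM. All irradiated libraries were below all controls, and control replicate 3 was far above the other 2. The log2 fold change was -2.70 (SE 0.795, 95% interval -4.40 to -0.99), with an adjusted p of 0.218 by edgeR and of 0.0224 by DESeq2. Without control replicate 3 it was -1.36 (edgeR adjusted p = 0.78), and without control replicate 1 it was -3.12 (edgeR adjusted p = 0.106). A new locus at chr1:95595998-95596190 (rn4) had nearly the same counts, 80, 106 and 227 and then 44, 59 and 44, and was also called by DESeq2 (log2 fold change -2.77, adjusted p = 0.0222). By the authors' methods, new loci drew on reads not assigned to miRBase, and the counts of both were tested as deposited.

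The other lymphocyte miRNAs tested were lower by less. miR-181a-5p, which sets the sensitivity of the T cell receptor, had a log2 fold change of -0.62 (SE 0.314, edgeR adjusted p = 0.45), miR-181b-5p of -0.51 (SE 0.289, edgeR adjusted p = 0.473) and miR-342-3p of -0.80 (SE 0.53, edgeR adjusted p = 0.519). All 4 of the 7 listed miRNAs that could be tested were negative, 1 of them at the unadjusted threshold, with a median of -0.71, and without control replicate 3 the median was -0.34 with 0 of 4 at that threshold. The direction depended on the scaling, since 3 of the 4 were positive with library totals.

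The red cell miRNAs differed in direction. miR-144-5p had 107, 125 and 72.2 CPM in the controls and 361, 273 and 201 CPM at 2 weeks, and miR-144-3p had 55.7, 45.2 and 125 CPM and then 217, 164 and 202 CPM. Neither overlapped between the groups. The log2 fold change was 1.46 for miR-144-5p (SE 0.637, edgeR adjusted p = 0.378) and 1.37 for miR-144-3p (SE 0.637, edgeR adjusted p = 0.411). Leaving out control replicate 3 gave 1.24 for miR-144-5p and 1.95 for miR-144-3p, and leaving out control replicate 1 gave 1.52 and 1.22, with adjusted p-values of 0.319 to 0.859 by edgeR. miR-144-5p then no longer passed the unadjusted threshold in either case, and miR-144-3p did not without control replicate 1.

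miR-451-5p, processed from the hairpin next to miR-144 by Argonaute 2 without Dicer, had 3115, 3473 and 911 CPM in the controls and 6090, 4019 and 3193 CPM at 2 weeks. The groups overlapped in CPM and did not overlap as shares of the counts outside miR-486-5p, and the log2 fold change was 0.83 (SE 0.472, edgeR adjusted p = 0.473). miR-486-5p itself had a log2 fold change of -1.40 (SE 0.493, edgeR adjusted p = 0.218), or -0.126 with library totals, which it nearly fills. With control replicate 3 left out it was at -1.08 and no longer passed the unadjusted threshold. The value for miR-16-5p was 0.08 on the log2 scale (SE 0.54, edgeR adjusted p = 0.977). Of the 7 red cell miRNAs tested, 5 were positive and 2 negative, 2 were higher and 1 lower at the unadjusted threshold, and the median was 0.13. miR-486-5p, a defining miRNA of red cells, held 83.27% or more of the counts of every blood library.

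**Figure D2:**
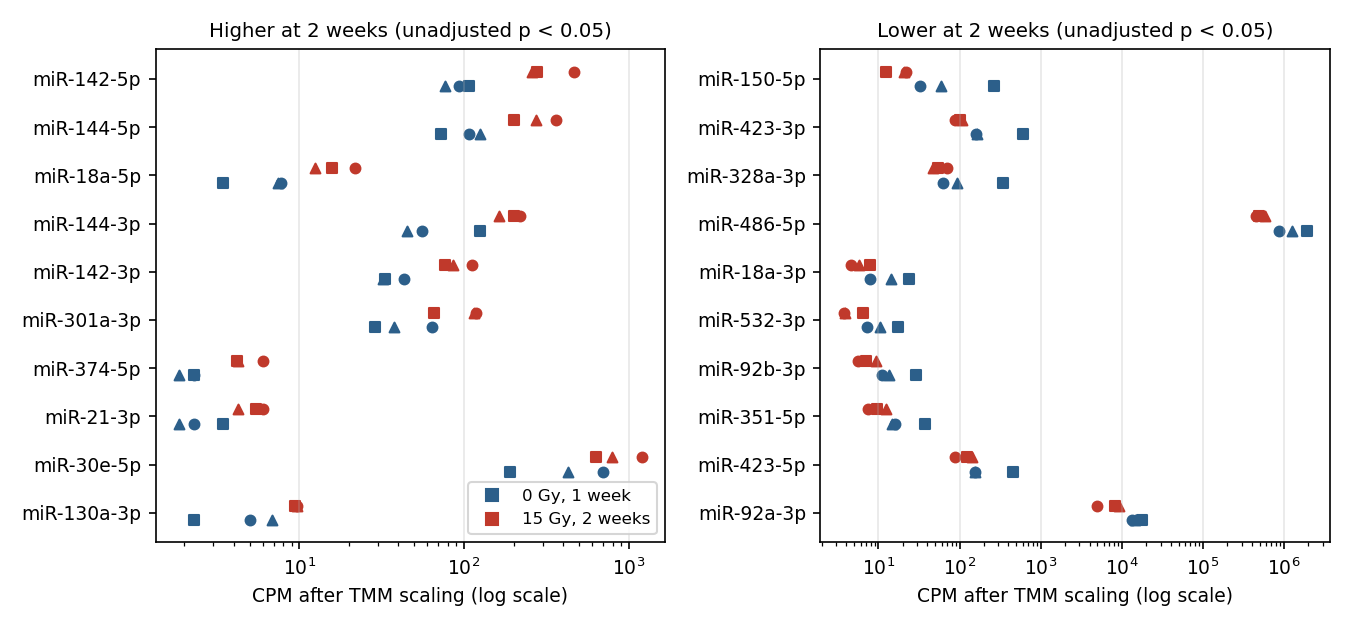
CPM after TMM scaling, on a log scale, of the 10 known rat miRNAs with the largest positive (left) and negative (right) log2 fold change at an unadjusted p under 0.05. Each point is 1 library, with circle, triangle and square for replicates 1, 2 and 3, 0 Gy 1 week in blue and 15 Gy 2 weeks in red. The blue square, control replicate 3, is the farthest from the red points in all 10 falls, and miR-142-5p has the widest gap between the groups among the rises.

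The other miRNAs with the largest positive differences were at lower counts or with groups closer together. miR-18a-5p had counts of 17, 12 and 3 and then 47, 32 and 49 (log2 fold change 1.38, SE 0.623, edgeR adjusted p = 0.394), and against 0 Gy 4 weeks it was at -0.056. miR-301a-3p had 140, 61 and 25 counts and then 253, 295 and 203 (1.18, SE 0.542, edgeR adjusted p = 0.406). miR-374-5p and miR-21-3p had at most 5 counts in any control library and 11 to 17 at 2 weeks. miR-30e-5p, with 1536, 690 and 166 and then 2580, 2037 and 1962 counts, overlapped in CPM. miR-130a-3p had 11, 11 and 2 counts and then 21, 25 and 29 (0.98, SE 0.399, edgeR adjusted p = 0.325). All 10 had adjusted p-values of 0.218 or more. Without control replicate 3, miR-18a-5p (1.12), miR-301a-3p (0.96), miR-30e-5p (0.63) and miR-130a-3p (0.69) no longer passed the unadjusted threshold, while miR-374-5p (1.19) and miR-21-3p (1.32) did. Without control replicate 1, miR-18a-5p (1.59), miR-130a-3p (1.03) and miR-21-3p (1.05) did not pass it.

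Several of the negative differences next in size to that of miR-150-5p were smaller without control replicate 3. miR-423-3p had 158, 165 and 610 CPM in the controls and 88.7, 107 and 100 CPM at 2 weeks (log2 fold change -1.65, SE 0.56, edgeR adjusted p = 0.218), and without that library the log2 fold change was -0.71. miR-328a-3p went from -1.53 to -0.46 in the same way, and neither then passed the unadjusted threshold. miR-92a-3p went from -1.02 to -0.90 and miR-18a-3p from -1.30 to -0.85, and both still passed it. The remaining falls of the 10, miR-532-3p, miR-92b-3p, miR-351-5p and miR-423-5p, had log2 fold changes of -1.27 to -1.11 and counts of 8 to 397 per library. These values became -0.90, -0.74, -0.64 and -0.39 without control replicate 3, and none of these 4 then passed the unadjusted threshold. With library totals, miR-92a-3p, miR-18a-3p and these 4 were no longer negative, at 0 to 0.229.

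The miR-17-92 and miR-106b-25 clusters, which promote cell proliferation and are each transcribed as a common precursor, held both directions. Of 15 listed, 13 were tested, with 8 positive and 5 negative, 1 higher and 2 lower at the unadjusted threshold, and a median of 0.34. miR-19a-3p had counts of 10, 5 and 1 in the controls and 36, 15 and 20 at 2 weeks, without overlap, and its log2 fold change of 1.60 (SE 0.966, edgeR adjusted p = 0.497) did not pass the unadjusted threshold. miR-92a-3p, encoded in the same cluster and also at another locus, had 13475, 14680 and 17607 CPM and then 4961, 9250 and 8344 CPM. Its log2 fold change was -1.02 (SE 0.351, edgeR adjusted p = 0.218), and its counts are not separated by locus. As a ratio within each library, which no scaling alters, miR-19a-3p to miR-92a-3p was 0.000373, 0.000253 and 0.00013 in the controls and 0.00346, 0.00067 and 0.000813 at 2 weeks, 5.35-fold higher.

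Grouped by seed, the 4 miRNAs with AAAGUGC (miR-17-5p, miR-20a-5p, miR-93-5p and miR-106b-5p) were all positive, between 0.11 and 0.93. The 4 with AUUGCAC, among them miR-25-3p, miR-92a-3p and miR-92b-3p shown above, lay between -1.25 and 0.09 with 1 positive. Both miR-19 forms, with GUGCAAA, were positive at 1.08 and 1.60. Both miR-125a-5p and miR-351-5p, with CCCUGAG, were negative at -1.24 and -1.19. Within AAAGUGC, the lowest value was that of miR-93-5p, the most abundant of the 4, and the highest that of miR-106b-5p, with 102, 65 and 5 and then 170, 138 and 140 counts. None of these seed groups was tested as a group. The let-7 family, with GAGGUAG, gave 8 tested of 9 listed with 2 positive, 0 at the unadjusted threshold and a median of -0.31.

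The remaining lists held few members that could be tested. Of 8 platelet miRNAs, 6 were positive, 0 passed the unadjusted threshold and the median was 0.08. Of 7 inflammation and injury miRNAs, 5 were tested with 4 positive, 1 at the unadjusted threshold and a median of 0.60, among them miR-21-5p with 767, 512 and 86 counts and then 1252, 1119 and 1075 (log2 fold change 0.83, SE 0.454, edgeR adjusted p = 0.469). Of 8 targets of p53, 3 were tested, with log2 fold changes from -0.38 to 0.46 and 0 at the unadjusted threshold, and 3 had no count in any of the 6 libraries. miR-30a-5p and miR-99b-5p had log2 fold changes of 0.57 (SE 0.331, edgeR adjusted p = 0.483) and -0.98 (SE 0.687, edgeR adjusted p = 0.557), and miR-9a-5p was not tested. The paper lists miR-30a-5p, miR-99b-5p, miR-9a-5p and miR-92b-3p as unchanged in blood at this time point. By RT-qPCR it reports rises of miR-142-5p, miR-144-3p, miR-144-5p, miR-19a-3p and miR-21-5p, and a fall of miR-150-5p. Its RT-qPCR did not bear out the fall of miR-486-5p. Only some of the rises in reads that it took to RT-qPCR were significant there.

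Markers of other tissues were at low levels in these libraries. The 11 lung epithelium miRNAs summed to 34.1 to 44.7 CPM in the controls and 26 to 34.5 CPM at 2 weeks, and smooth muscle miRNAs, which include miR-143-3p and miR-145, to 120 to 214 CPM and then 83.1 to 110 CPM, the latter without overlap. In the lung epithelium list miR-182 had the most counts, 58, 31 and 18 and then 35, 62 and 61, and miR-375-3p had 10, 7 and 11 and then 1, 2 and 5. The smooth muscle sum was nearly all miR-143-3p, with at most 2 counts for either arm of miR-145. Endothelial miRNAs summed to 83.6 to 140 and then 70.5 to 98.4 CPM, and liver miRNAs to 61.9 to 163 and then 171 to 181 CPM, again without overlap for liver. The liver sum was mostly miR-192-5p, with counts of 334, 244 and 51 and then 371, 422 and 501. The liver list had 2 of 3 positive with a median of 0.46, and with the libraries in doubt exchanged 1 of 3 with a median of -0.21. Heart and skeletal muscle miRNAs summed to 0.914 to 3.44 CPM in the controls and 4.65 to 6.14 CPM at 2 weeks, without overlap, and this came from miR-133a-3p, with counts of 2, 3 and 2 and then 11, 10 and 18 (log2 fold change 1.60, SE 0.944, edgeR adjusted p = 0.484). With the libraries in doubt exchanged it was at 0.19, and against 0 Gy 4 weeks, where 1 library reached 5.08 CPM and the 2-week libraries spanned 3.87 to 5.82 CPM, at 0.73. 3 of the 5 members of that list had no count in any of the 6 libraries. The part of such cells in the results was not tested.

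Ratios of 2 miRNAs within a library were compared for 10 pairs by two-sided exact permutation tests on log2 ratios with a pseudocount of 1 count. For 7 pairs the groups did not overlap, which with 3 against 3 libraries gives the smallest exact permutation p of 0.1 (adjusted over the 10 pairs, 0.143). The pairs were chosen with earlier results of these data known. The share without overlap among all possible pairs was not computed, so 7 of 10 is no result by itself. For miR-19a-3p to miR-191a-5p the highest control was at 0.000693 and the lowest 2-week library at 0.000698, on miR-19a-3p counts of 1 to 36. miR-142-5p to miR-150-5p was 2.86, 1.29 and 0.409 in the controls and 20.9, 12.3 and 22.2 at 2 weeks, 15.6-fold higher, the largest of the 10. miR-486-5p to miR-451-5p, both of red cells, was 280, 356 and 2080 in the controls and 73.7, 145 and 152 at 2 weeks, 5.04-fold lower. These are ratios of reads, and the paper's RT-qPCR of rat blood placed both miRNAs in a similar range. Against miR-191a-5p, miR-142-5p was 3.64-fold, miR-144-3p 2.93-fold and miR-19a-3p 2.67-fold higher, and miR-150-5p was 4.28-fold lower. Without control replicate 3, miR-142-5p to miR-150-5p was 9.29-fold higher, miR-486-5p to miR-451-5p 2.69-fold lower and miR-150-5p to miR-191a-5p 2.34-fold lower. Without control replicate 1, miR-142-5p to miR-150-5p was 24.6-fold higher. The ratio of the miR-144 arms (difference in log2 -0.05), that of the miR-142 arms (0.49) and that of miR-144-3p to miR-451-5p (0.50) overlapped between the groups.

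Compared with the mean of the other irradiated groups, which do not share the control, 0 miRNAs passed the adjusted threshold in either direction by edgeR (0%), with 11 higher (3.81%) and 11 lower (3.81%) at the unadjusted threshold, and DESeq2 called 1 higher and 1 lower. miR-142-5p was higher at 2 weeks than at the other weeks, with a log2 difference of 1.32 (SE 0.427), as were miR-142-3p (1.03, SE 0.328), miR-130a-3p (1.04, SE 0.303) and miR-144-5p (1.28, SE 0.479), each past the unadjusted threshold and each with an edgeR adjusted p of 0.543. miR-142-5p was at 75.4 to 119 CPM at 15 Gy 1 week, 257 to 465 CPM at 2 weeks, 129 to 192 CPM at 3 weeks and 55.2 to 368 CPM at 4 weeks, so 1 library at 4 weeks was within the range of the 2-week libraries. At 0 Gy 4 weeks it was at 85.3 to 178 CPM, and the log2 difference of 2 weeks from that group was 1.51 (edgeR adjusted p = 0.323). For miR-142-3p, 1 library at 3 weeks (90.3 CPM) and 1 at 4 weeks (81.4 CPM) lay within its 2-week range of 76.9 to 112 CPM. So did 1 library at each of these weeks for miR-144-5p, at 212 and 296 CPM within 201 to 361 CPM. For miR-150-5p the log2 difference of 2 weeks from the other irradiated weeks was -0.11 (SE 0.619, edgeR adjusted p = 0.983), with means of 18.3 CPM at 1 week, 18.2 at 2 weeks, 14.5 at 3 weeks and 29 at 4 weeks after 15 Gy, against 119 and 96.7 CPM in the 0 Gy groups at 1 and 4 weeks. The 0 Gy libraries spread from 21.9 to 265 CPM.

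**Figure D3:**
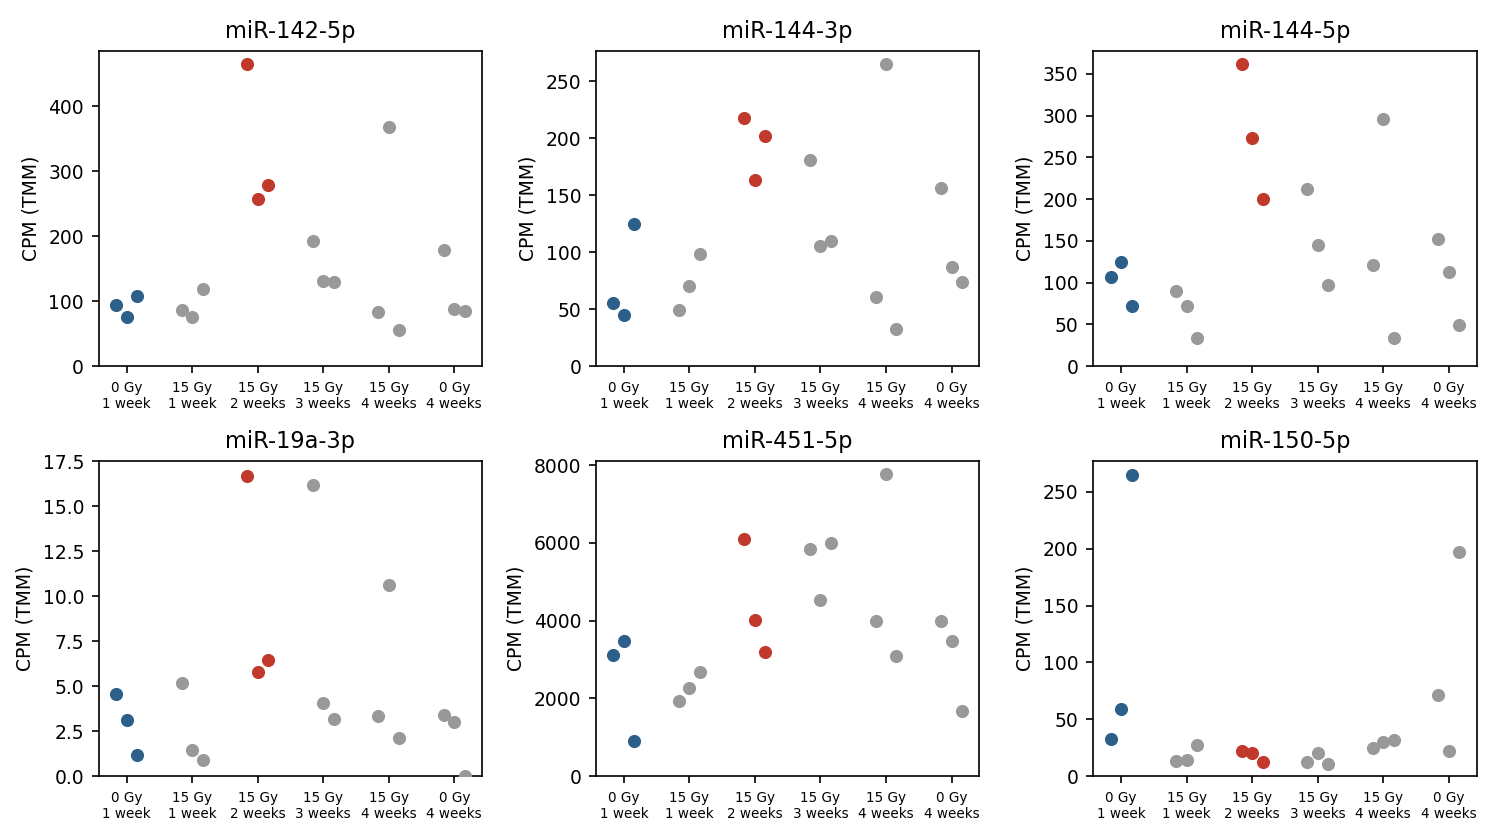
CPM after TMM scaling of 6 miRNAs in the 18 blood libraries, by dose and week, each panel on its own linear axis from 0. Each point is 1 library, with 0 Gy 1 week in blue, 15 Gy 2 weeks in red and the other groups in grey. The 3 red points for miR-142-5p lie from 257 to 465 CPM, with only 1 grey point (368 CPM, 15 Gy 4 weeks) among them, and miR-150-5p is at or under 31.9 CPM in every irradiated library.

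The only miRNA called after adjustment was a new one predicted by the authors at chr19:25638547-25638840 (rn4). It had 0, 0 and 0 counts in the controls and 80, 91 and 83 at 2 weeks, at least 50.5-fold higher if the 3 control libraries together are set at the limit of 3 counts (edgeR adjusted p = 9e-06). The unirradiated libraries at 4 weeks held 58, 80 and 77 counts, and the log2 difference of 2 weeks from them was -0.11 (SE 0.411, edgeR adjusted p = 0.905). All 15 other blood libraries had counts of 19 to 217. miR-27a-3p, by contrast, had counts in every library, 68, 45 and 15 in the same controls. With the libraries in doubt exchanged, the log2 fold change was 2.81 with an adjusted p of 0.27 by edgeR. A shorter new locus inside it, chr19:25638578-25638661, was listed at 0 in all 18 blood libraries while 14 lung libraries had counts, up to 6926. It and miR-27a-3p were chosen after their values were seen.

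The change at 2 weeks in blood was set against that in lung in a joint fit of all 36 libraries, whose scaling and filter differ from those of the blood fit. Replicate 3 of the lung controls held 11621 counts, against 1523909 and 964989 in the other two. In the joint fit miR-142-5p had a log2 fold change of 2.14 in blood and -0.07 in lung, a difference of 2.21 (SE 0.854, edgeR adjusted p = 0.564). miR-150-5p had -2.39 in blood and -0.09 in lung, a difference of -2.30 (SE 0.902, edgeR adjusted p = 0.564). Without the 2 lung libraries of lowest depth, that control among them, the differences were 2.30 and -1.85 (edgeR adjusted p of 0.512 and 0.58). Of 576 miRNAs tested for the difference between blood and lung, 1 was higher after adjustment (0.174%) and 0 lower (0%). At the unadjusted threshold 17 were higher (2.95%) and 22 lower (3.82%), and DESeq2 called 3 higher and 1 lower.

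The direction of the differences went with the base composition of the miRNAs. Over the 127 known rat miRNAs tested that had a RefSeq sequence, 89.4% of those tested, GC content and log2 fold change had r = -0.535 and rho = -0.516, which is across miRNAs that are not independent replicates and share the libraries and their depth. The 9 higher at the unadjusted threshold had a median GC content of 34.8%, the 7 lower had 60%, and all 127 had 45.5%. miR-21-3p, at 59.1%, was an exception among those higher. Of 25 miRNAs at or under 40% GC the median log2 fold change was 0.83, and of 40 over 50% it was -0.13. Among 21 hairpins with both arms tested, 20 had arms of unequal GC content, and the arm of lower GC had the higher log2 fold change in 15 and the lower in 5. In the hairpin of miR-18a, printed above, the 5p arm at 43.5% had 1.38 and the 3p arm at 52.4% had -1.30. Against 0 Gy 4 weeks the correlation was r = -0.677 and against the other irradiated weeks r = -0.635, neither of which uses control replicate 3. For 2 weeks against 0 Gy 1 week with control replicate 3 left out, the correlation over the 127 was r = -0.349. In lung it was 0.321 over 113 miRNAs, and 0.404 over 117 without the 2 lung libraries of lowest depth.

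**Figure D4:**
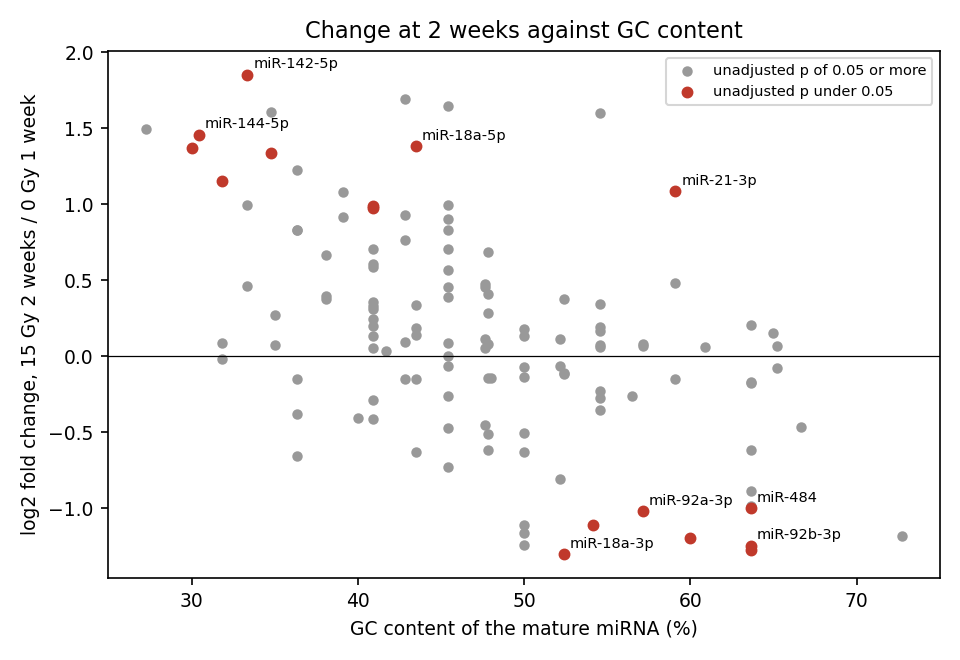
GC content of the mature sequence in percent, against the log2 fold change at 15 Gy 2 weeks over 0 Gy 1 week, for 127 known rat miRNAs. Each point is 1 miRNA, red where the unadjusted p was under 0.05. The points fall from upper left to lower right, r = -0.535.

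Per library, log2 level was taken relative to each miRNA's mean over the 18 blood libraries, and its slope on GC content was fitted. The sign of a slope is therefore relative to the average blood library. It was -0.14, -0.085 and 0.45 per 10 points of GC in the 3 controls and -0.458, -0.343 and -0.246 at 2 weeks. Relative to that average, control replicate 3 was the steepest upward of these and all 2-week libraries sloped downward (mean 0.075 ± 0.326 and -0.349 ± 0.106, SD, n = 3, two-sided exact permutation test, p = 0.1, the smallest possible). Replicate 3 of 0 Gy 4 weeks had the steepest slope of all 18, 0.574, and the 3-week libraries had -0.264 to -0.056. With an offset for GC content in each library, fitted to these 127 miRNAs, the log2 fold change of miR-142-5p went from 1.85 to 1.17 and that of miR-142-3p from 1.33 to 0.80, and both still passed the unadjusted threshold. That of miR-144-5p went from 1.45 to 0.75, that of miR-144-3p from 1.38 to 0.42 and that of miR-92a-3p from -1.02 to -0.61, and these did not. That of miR-21-3p went from 1.12 to 1.55 and passed it. Both arms of miR-18a also passed it, at 1.19 from 1.33 for the 5p arm and -1.01 from -1.24 for the 3p arm. The adjusted p-values of edgeR with the offset were 0.415 or more for all of these. The miRNAs at the unadjusted threshold went from 20 to 8. The offset was fitted without regard to group. It therefore takes out any difference between the groups that goes with GC content, whatever its source. miR-150-5p and miR-486-5p have no sequence in the table used and were not in this fit. The part of base composition in the differences was not tested.

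**Figure D5:**
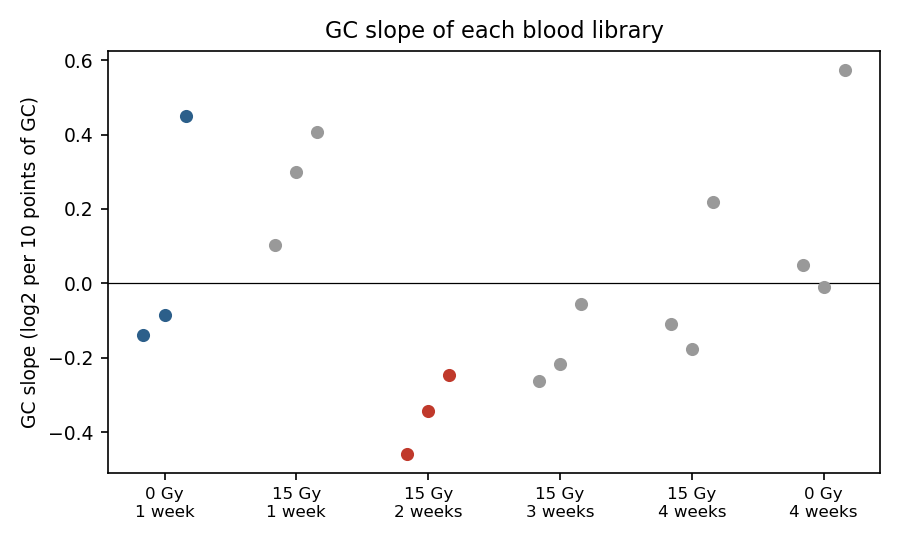
Slope on GC content of log2 level relative to each miRNA's mean over the 18 blood libraries, in log2 per 10 points of GC. Each point is 1 library over 127 miRNAs, by dose and week. The 3 libraries at 15 Gy 2 weeks in red lie from -0.458 to -0.246, and control replicate 3 in blue lies at 0.45.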

How the data were processed

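Small RNA of blood was sequenced in 6 groups of 3 libraries. The values deposited by the authors are raw counts of reads per miRNA, all whole, in a table of 947 miRNAs by 36 libraries. The authors trimmed adapters and bases of quality under 13, assigned reads to known miRNAs of miRBase by Bowtie, and looked for new loci among unassigned reads. The submitters' processing notes name Trim Galore 0.2.5, Bowtie 1.1.1 and build rn4. The table holds no unmapped columns. The supplementary count table was used only to compare columns.

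The 18 blood libraries were fitted together in R 4.3.3 with edgeR 4.0.16: filterByExpr (289 of 947 left), TMM scaling, and a quasi-likelihood test whose p-values were adjusted by Benjamini-Hochberg over the 289 (threshold 0.05). For blood against lung, all 36 libraries were fitted. DESeq2 1.42.0 was run on the miRNAs left by the filter. Levels are CPM after TMM. That of miR-486-5p can exceed the whole scale where TMM sets the size of a library below its total. SE is the log2 fold change over the root of F. Shares and ratios were compared by two-sided exact permutation tests. A floor of 3 counts allows for counting error alone, because amplified reads are not separate molecules. p-values measure the spread between libraries, which may be technical in part. Alternatives were scaling, filters, DESeq2, other controls, libraries left out or exchanged, a replicate block and, chosen after seeing the data, a GC offset, replicate 3 of both 0 Gy groups left out, and GC correlations without control replicate 3 or the 2 lung libraries of lowest depth. The test was also run on simulated counts with known changes. These held no outlying library and no effect of GC content, so that check does not cover either.

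miRNAs, lists and tests were chosen with earlier results of these data known. Named are those called in any comparison, the 10 largest rises and falls of known miRNAs at unadjusted p under 0.05, those the paper names for blood, the most abundant, and list members.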

Additional observations from a re-analysis of the deposited data

Results flagged for a closer look

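The change at 2 weeks differed between blood and lung for 1 miRNA after adjustment, the new locus at chr19:25638547-25638840 (rn4). Its log2 change in blood minus that in lung was 9.97 (SE 1.53, adjusted p = 0.000482, edgeR interaction term). The 3 blood controls were at 0, so the size is no bound, and in lung its log2 fold change in the same fit was 0.40 (SE 0.659). Without the 2 lung libraries of lowest depth the difference was 10.22 (SE 0.94).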

How the results depend on the processing

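The adjusted count of 1 became 0 with only miRNAs of mean count above 100, with known rat miRNAs only, with known miRNAs that have a sequence, with or without the GC offset, with 0 Gy 4 weeks as control and with the libraries in doubt exchanged, and 3 with DESeq2. Each of these settings that gave 0, except the last 2, leaves out the chromosome 19 locus. At 0 Gy 4 weeks the locus had counts in all libraries. For the other changes the cause was not tested. The unadjusted count of 34 became 89 with library totals, 12 with miR-191a-5p as size, 21 above a mean count of 100, 62 with the libraries in doubt exchanged and 56 without them, 20 among known miRNAs with a sequence and 8 with the GC offset. Leaving out 1 library in turn gave 18 (without control replicate 3) to 51 (without control replicate 1), with 22 without 2-week replicate 1. Against the other irradiated weeks, DESeq2 called 2 and the fit without the libraries in doubt called 1, where edgeR called 0. For blood minus lung, DESeq2 called 4.

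Some directions turned. Against 0 Gy 4 weeks, miR-18a-5p was at -0.056 and the chromosome 19 locus at -0.113. With library totals, miR-18a-3p was at 0.008, miR-532-3p at 0, miR-92b-3p at 0.031, miR-351-5p at 0.079, miR-423-5p at 0.229, miR-92a-3p at 0.157, miR-191a-5p at 1.11 and miR-99b-5p at 0.304. miR-191a-5p was at 0.129 with the GC offset and from -0.149 to 0.04 with 1 library left out. miR-16-5p was at -0.194 with replicate 3 of both 0 Gy groups left out and from -0.333 to 0.484 with 1 library left out.

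With both 0 Gy groups pooled as control, the exact permutation p of the miR-486-5p share (-7.147) and of 6 log2 ratios fell under 0.05, since 6 control libraries allow smaller p-values. These were -1.944 for miR-486-5p to miR-451-5p, 2.76 for miR-19a-3p to miR-92a-3p, 3.708 for miR-142-5p to miR-150-5p, and 2.226, 1.621 and 2.074 for miR-19a-3p, miR-144-3p and miR-142-5p to miR-191a-5p. The log2 ratio of miR-144-5p to miR-144-3p was 0.2637 there, 0.2536 with the exchange and -0.7038 to 0.4148 with 1 library left out, and that of miR-144-3p to miR-451-5p was -0.1444 to 1.55.

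The replicate numbers did not pair the libraries (correlations of deviations 0.123, -0.00932 and -0.242). With the replicate block, 1 miRNA was called after adjustment and 49 before it, and no other call changed among those tested across many miRNAs. Depth outside miR-486-5p, lowest in control replicate 3, limits miRNAs of low counts most.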
